A study of Mus musculus with 2 samples.

Results

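The genes described here are 10 targets and feedback genes of the Wnt pathway, followed through the cell types of mouse small-intestinal crypts. They were taken by name from the 31055 genes of a single-cell RNA-seq table, and all 10 were detected. In the order of their roles they are the receptor Lgr4, the receptor-clearing ubiquitin ligases Rnf43 and Znrf3, the intracellular antagonist Nkd1, the transcription factors Tcf7, Sp5, Myc and Sox9, and the ephrin receptors Ephb2 and Ephb3. The cells came from a ChgaCreER-tdTomato::Rosa26LSL-eYFP mouse. In this model a tamoxifen-activated Cre recombinase, expressed with tdTomato from the enteroendocrine gene Chga, switches on eYFP in Chga-expressing cells and in all their descendants. All cells share this genotype and the treatment, tamoxifen at 1 mg a day in 5 daily injections, and neither an age nor an untreated control is named. Cells sorted for eYFP and bulk-sorted epithelial cells were marked with 4 hashtag antibodies and pooled in 1 droplet-based 3′ library. The sources used here do not say which tags mark which sort.

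Wnt ligands bind Frizzled and Lrp5 or Lrp6 receptors, stop the destruction complex from degrading beta-catenin, and let beta-catenin work with TCF and LEF factors on target genes. At the crypt base this signal maintains Lgr5-positive stem cells, and it weakens towards the villus. Several of its targets feed back on it: Rnf43 and Znrf3 remove Frizzled from the cell surface, R-spondins bound to Lgr4 or Lgr5 block that removal, and Nkd1 acts on Dishevelled. Ephb2 and Ephb3 are Wnt targets that guide cells along the crypt by repulsion from ephrin-B ligands.

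Of the 10 genes, 7 had a promoter in the RefSeq promoter table of build GRCm38.p6, in 9 windows of 300 bases (250 before to 50 after the transcription start). The core letters bound by TCF and LEF factors, CTTTGAT or CTTTGAA on either strand, were searched in all 32851 windows of the table, and 8.65% of them held a match. Sp5 was the only one of the 7 genes with a match, and its window, chr2:70474673-70474972 on the plus strand, is shown for that reason. The match CTTTGAT, in capitals, starts at base -104 from the transcription start.

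Sp5: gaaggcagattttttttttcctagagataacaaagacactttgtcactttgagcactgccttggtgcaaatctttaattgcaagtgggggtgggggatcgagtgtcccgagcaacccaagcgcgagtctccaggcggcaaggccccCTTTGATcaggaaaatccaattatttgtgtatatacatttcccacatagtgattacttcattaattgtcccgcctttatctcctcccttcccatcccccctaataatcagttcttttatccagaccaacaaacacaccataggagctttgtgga

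The windows of Lgr4, Rnf43, Nkd1, Tcf7, Ephb2 and Ephb3 held neither form, which says only that these letters are not in those windows. Promoters of Znrf3, Myc and Sox9 were not analysed here.

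The authors kept 2335 cells with 1002 to 129719 unique transcript counts (UMIs), a median of 19078 and 51238250 in total. Cells entered 6 classes by their own counts. The Lgr5 class (at least 3 Lgr5 UMIs, the stem cell receptor) had 497 cells and the cycling class (at least 10 UMIs of Mki67 and Top2a together) 637. The Neurog3 class (at least 3 UMIs of this endocrine commitment factor) had 47 cells and the Chga class (at least 20 UMIs) 366. The goblet class (Agr2, Fcgbp and Muc2 at 0.5% of UMIs or more) had 129 cells and the enterocyte class (at least 2 UMIs of Alpi, the brush border alkaline phosphatase) 134. These are ranges of counts, not separate types: 1162 cells met 1 rule, 310 met more than 1, among them 180 in both the Lgr5 and the cycling class, and 863 met none. Median depth per class ran from 12142 UMIs (Chga) to 31975 (cycling), and a fixed cut in UMIs takes in deeper cells more easily. Although the labels name 1 mouse, Xist was counted 3 or more times, without any Y-linked UMI, in 1744 cells, while 252 cells had a Y-linked UMI beside 2 Xist UMIs or fewer. Of the latter, 248 carried tags 1 and 2, so values are also given within these groups where they matter. With 1 library and no replicates no test was possible. Levels are UMIs of a gene summed over a class per 1000000 UMIs of that class (CPM), with exact 95% Poisson intervals that cover counting error only. A gene is counted as lower or higher when it differed by 2-fold or more on the log2(CPM + 1) scale with intervals apart, among genes with at least 20 UMIs over both classes.

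All 10 genes together made up 710 CPM (696 to 724) of the Lgr5 class, 453 (444 to 462) of the cycling class, 439 (401 to 479.9) of the Neurog3 class, 409 (394 to 425) of the Chga class, 338 (318 to 359) of the goblet class and 168 (156 to 180.1) of the enterocyte class. The intervals of the cycling, Neurog3 and Chga classes lay close together or overlapped, and those of the Lgr5 class above and the enterocyte class below stood clear of the rest. In single cells the median sum was 730.2 CPM in the Lgr5 class, with quartiles of 539 and 949.5. It was 138 CPM in the enterocyte class, where the quartiles were 80.3 and 211. Sums were also taken just inside and just outside each class border. Cells with exactly 3 Lgr5 UMIs, just inside the Lgr5 class, had 651 CPM (620 to 683, 109 cells). Those with 2, just outside, had 576 (552 to 601, 154 cells). At the Alpi border the sums were 254 CPM (222 to 290.4, 24 cells) inside and 372 (349.6 to 394, 105 cells) outside. The intervals were apart at both the Lgr5 and the Alpi border. At the other borders the intervals inside and outside overlapped.

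**Figure D1:**
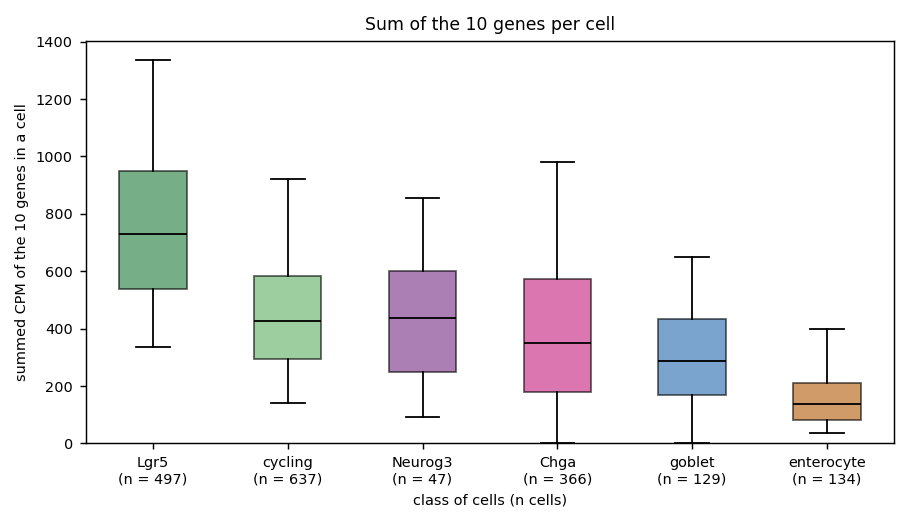
Sum of the 10 genes in single cells (CPM) by class of cells. Boxes span the quartiles with the median as a line, and whiskers run from the 5th to the 95th percentile; the medians run from 730.2 CPM in the Lgr5 class to 138 CPM in the enterocyte class.

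Against the Lgr5 class, 3 of the 10 genes were lower in the cycling class (Nkd1, Sp5 and Ephb3), beside 0.835% of 12693 genes tested. The Neurog3 class was lower in 5 (Rnf43, Nkd1, Tcf7, Sp5 and Myc) beside 1.74% of 11653 genes, and the Chga class in the same 5 beside 3.91% of 12444 genes. In the goblet class 6 were lower (Rnf43, Znrf3, Nkd1, Tcf7, Sp5 and Ephb3) beside 5.58% of 11780 genes. The enterocyte class was lower in 9, all but Lgr4, beside 17.0% of 11814 genes. None of the 10 was higher in any class, where 1.51%, 9.33%, 17.7%, 7.83% and 9.67% of all genes were higher in the same order. The median log2 ratio of the 10 genes was -0.75, -0.97, -0.89, -1.75 and -2.75, against medians over all genes of 0.03, 0.13, 0.18, -0.10 and -0.22. Centring on those medians gave 4, 5, 5, 6 and 9 lower genes. All 5 comparisons share the Lgr5 class, and 20 of the 47 Neurog3 class cells are also in the Chga class, so these 2 sets of genes are not independent. Since the Lgr5 and cycling classes share cells, their sums are not independent either. With cells of more than 1 class left out, 6 genes were lower in the cycling class, now also Rnf43 (log2 ratio -1.67), Tcf7 (-1.05) and Sox9 (-1.47). In cells of tags 1 and 2 alone, 1 gene was lower in the cycling and 1 in the Neurog3 class. Without the cells of highest doublet scores, 3 were lower in the Neurog3 class.

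**Figure D2:**
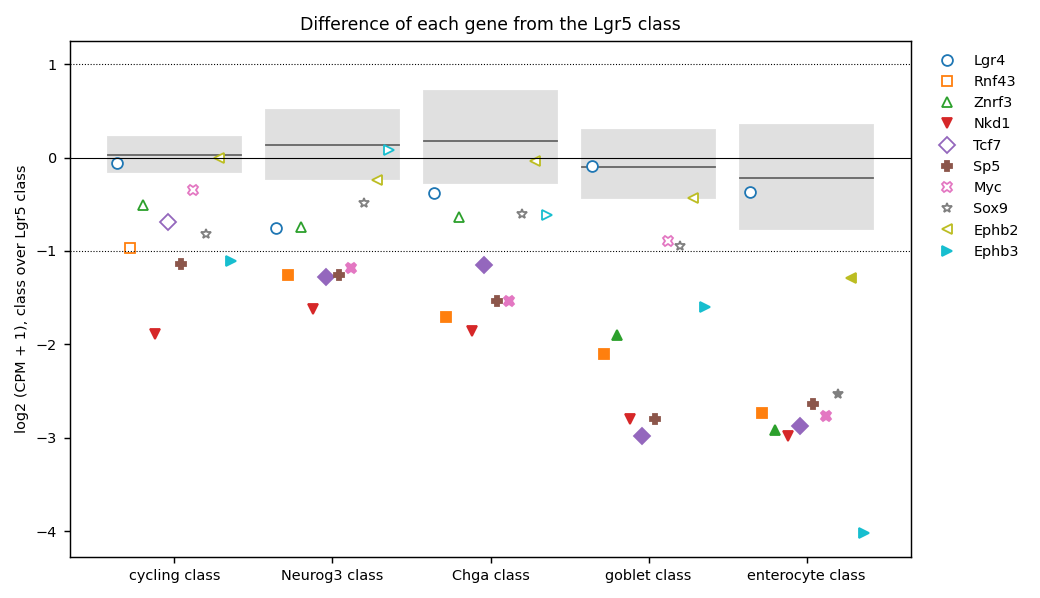
Log2 ratio of CPM + 1 between each class and the Lgr5 class for the 10 genes. Filled symbols passed the 2-fold rule with intervals apart; grey boxes and lines give the quartiles and the median of all genes tested. Between 3 genes (cycling) and 9 genes (enterocyte) lie in the lower, filled set and none in an upper one.

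Among the receptors and their regulators, Lgr4 (ENSMUSG00000050199), which binds R-spondins like Lgr5, varied least with Ephb2. It stood at 84.0 CPM (79.4 to 88.9) in the Lgr5 class, 80.7 (77.0 to 84.5) in the cycling, 79.0 (69.5 to 89.5) in the goblet, 64.9 (57.6 to 72.8) in the enterocyte, 64.4 (58.4 to 70.9) in the Chga and 49.3 (37.1 to 64.2) in the Neurog3 class. Each neighbour in this order overlapped the next, and the highest class was 1.70 times the lowest. The intervals of the enterocyte, Chga and Neurog3 classes nevertheless lay below that of the Lgr5 class. By comparison Lgr5 itself, whose counts define the first class, fell from 227 CPM there to 3.34 in the enterocyte class.

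Rnf43 (ENSMUSG00000034177) was at 97.7 CPM (92.7 to 103) in the Lgr5 class, 49.4 (46.5 to 52.3) in the cycling, 40.3 (29.4 to 53.97) in the Neurog3, 29.2 (25.2 to 33.7) in the Chga, 21.9 (17.0 to 27.7) in the goblet and 13.8 (10.6 to 17.7) in the enterocyte class. The Lgr5 class stood apart, and below it every neighbour in the order overlapped the next. The log2 ratio to the Lgr5 class was -0.97 in the cycling class, just short of the 2-fold rule, and -2.74 in the enterocyte class. Its relative Znrf3 (ENSMUSG00000041961) was at 21.7 CPM (19.4 to 24.3) in the Lgr5 class and close together in the cycling (14.9), Chga (13.7) and Neurog3 (12.5) classes. Only the goblet class, at 5.08 (2.90 to 8.25), and the enterocyte class, at 2.01 (0.918 to 3.81), passed the 2-fold rule, with log2 ratios of -1.90 and -2.92. In the Chga class Rnf43 was at 0.299 times the Lgr5 class (0.255 to 0.348) and Znrf3 at 0.629 times (0.492 to 0.799), intervals that do not overlap.

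Nkd1 (ENSMUSG00000031661) was low in the other 5 classes. It had 10.4 CPM (8.79 to 12.2; 150 UMIs) in the Lgr5 class, 2.08 (1.53 to 2.76; 47 UMIs) in the cycling and 2.15 (1.18 to 3.61; 14 UMIs) in the Chga class. Only 3 UMIs were counted in the Neurog3 class (0.259 times the Lgr5 class, 0.0528 to 0.772), 2 in the goblet class (0.0611 times, 0.00734 to 0.225) and 2 in the enterocyte class (0.0429 times, 0.00515 to 0.158). Outside these 6 classes Nkd1 was also present in Paneth cells, the antimicrobial neighbours of the stem cells, taken as cells with at least 5% of UMIs from Lyz1 and defensins: 10.8 CPM (6.57 to 16.6; 44 cells), and 8.69 (3.97 to 16.5) in the 30 of them outside the Lgr5 class. In the 32 cells with at least 3 UMIs of the tuft cell genes Dclk1 and Trpm5 it was at 25.4 CPM (13.9 to 42.6; 14 UMIs), 2.45 times the Lgr5 class (1.31 to 4.23), and at 48.4 CPM (23.2 to 89.02; 10 UMIs) in the 19 of them outside the 6 classes. The 14 UMIs lay in only 6 of the 32 cells, 18.8%, beside 21.9% of Lgr5 class cells with an Nkd1 UMI. Thinned to 5000 UMIs, the shares overlapped. They were 8.33% of 24 tuft cells (1.03 to 27.0%) and 5.91% of 491 Lgr5 class cells (3.99 to 8.37%). Of the 32 cells, 7 were also in the Chga class, and enteroendocrine markers summed to 19214 CPM over the 32, with a median of 422 in single cells; their part in these values was not tested.

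Among the transcription factors, Tcf7 (ENSMUSG00000000782), one of the TCF family itself, had 14.5 CPM (12.6 to 16.6) in the Lgr5 class, 8.62 (7.46 to 9.92) in the cycling, 5.99 (4.26 to 8.19) in the Chga and 5.38 (1.97 to 11.7) in the Neurog3 class. The enterocyte class had 1.11 CPM (0.362 to 2.60; 5 UMIs) and the goblet class 3 UMIs, 0.0658 times the Lgr5 level (0.0135 to 0.195). Tcf7 was higher in T cells, where it is a well known factor: 41 cells with at least 3 Cd3d, Cd3e and Cd3g UMIs held 96.3 CPM (49.8 to 168; 12 UMIs). The Neurog3 value rests on 6 UMIs and turned to a log2 ratio of 0.20 when each cell was thinned to 5000 UMIs.

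Sp5 (ENSMUSG00000075304), a zinc-finger factor of the Sp family whose promoter window is shown above, was at 59.2 CPM (55.3 to 63.3) in the Lgr5 class. The cycling, Neurog3 and Chga classes followed at 26.3 (24.2 to 28.5), 24.2 (15.9 to 35.2) and 19.8 (16.5 to 23.5) and overlapped in that order. The enterocyte and goblet classes lay lower again, at 8.70 (6.18 to 11.9) and 7.62 (4.88 to 11.3), apart from the Chga class. Its log2 ratios to the Lgr5 class were thus -1.14, -1.26, -1.53, -2.63 and -2.80.

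Myc (ENSMUSG00000022346), the growth and cell cycle factor, kept a different order. It was at 60.2 CPM (56.3 to 64.4) in the Lgr5 class, 47.1 (44.4 to 50.1) in the cycling, 32.1 (26.1 to 38.9) in the goblet, 26.0 (17.4 to 37.3) in the Neurog3, 20.1 (16.8 to 23.9) in the Chga and 8.03 (5.62 to 11.1) in the enterocyte class. The goblet interval lay above the Chga interval, the reverse of the order seen for Znrf3, Tcf7 and Sp5, whose intervals were apart too, and for Rnf43, whose intervals overlapped. Goblet cells outside the cycling class had 25.2 CPM of Myc (51 UMIs) and those in it 44.3. The part of cycling cells in this order was not tested. In B cells (88 cells with at least 3 UMIs of Cd79a, Cd79b and Ms4a1) Myc was higher than in any of the 6 classes, at 111 CPM (80.3 to 149).

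Sox9 (ENSMUSG00000000567), a factor of crypt progenitors and Paneth cells, had 267 CPM (259 to 276) in the Lgr5 class, 190.03 (165 to 217) in the Neurog3, 175 (165 to 186) in the Chga, 151 (146 to 156) in the cycling, 138 (126 to 152) in the goblet and 45.5 (39.5 to 52.2) in the enterocyte class. Both endocrine classes stayed above the cycling class, and the enterocyte class alone passed the 2-fold rule (log2 ratio -2.53). Paneth cells had 135 CPM (119 to 153), and 107 (88.2 to 129) in the 30 of them outside the Lgr5 class. The 6 Paneth marker genes alone summed to 444010 CPM in Paneth cells, against 21736 in the Lgr5 class. This lowers the CPM of other genes in Paneth cells, and its part in these values was not tested. The tuft cells, at 265 (224 to 311), overlapped the Lgr5 class. The 19 tuft cells outside the 6 classes had 382 CPM (303 to 477), above the Lgr5 class.

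The ephrin receptors parted. Ephb2 (ENSMUSG00000028664) was at 54.3 CPM (50.5 to 58.2) in the Lgr5 class, 54.1 (51.1 to 57.2) in the cycling, 52.7 (47.3 to 58.6) in the Chga, 45.7 (34.04 to 60.1) in the Neurog3 and 39.99 (33.3 to 47.6) in the goblet class, each overlapping the next. The goblet interval nevertheless lay below that of the Lgr5 class. By the 2-fold rule Ephb2 was lower only in the enterocyte class, at 21.6 (17.5 to 26.4), a log2 ratio of -1.29. Ephb3 (ENSMUSG00000005958) was at 43.03 CPM (31.7 to 57.1) in the Neurog3 and 40.6 (37.4 to 44.1) in the Lgr5 class, which overlapped. Below them came the Chga class at 26.1 (22.3 to 30.4), the cycling at 18.3 (16.6 to 20.2), the goblet at 12.7 (9.07 to 17.3) and the enterocyte class at 1.56 (0.628 to 3.22; 7 UMIs). Relative to the Lgr5 class, Ephb3 in enterocytes was at 0.0384 times (0.0154 to 0.0796) and Ephb2 at 0.399 times (0.319 to 0.493). Paneth cells had 36.6 CPM of Ephb3 (28.4 to 46.4) and 17.2 of Ephb2 (11.8 to 24.3). In this whole class Ephb3 thus overlapped the Lgr5 class and Ephb2 did not. In the 30 Paneth cells outside the Lgr5 class Ephb3 was at 26.1 CPM (17.2 to 37.9) and Ephb2 at 12.55 (6.68 to 21.5). That Ephb3 interval only just reached the interval of the Lgr5 class. The large share of Paneth marker genes in these cells, given above for Sox9, lowers these CPM values too.

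**Figure D3:**
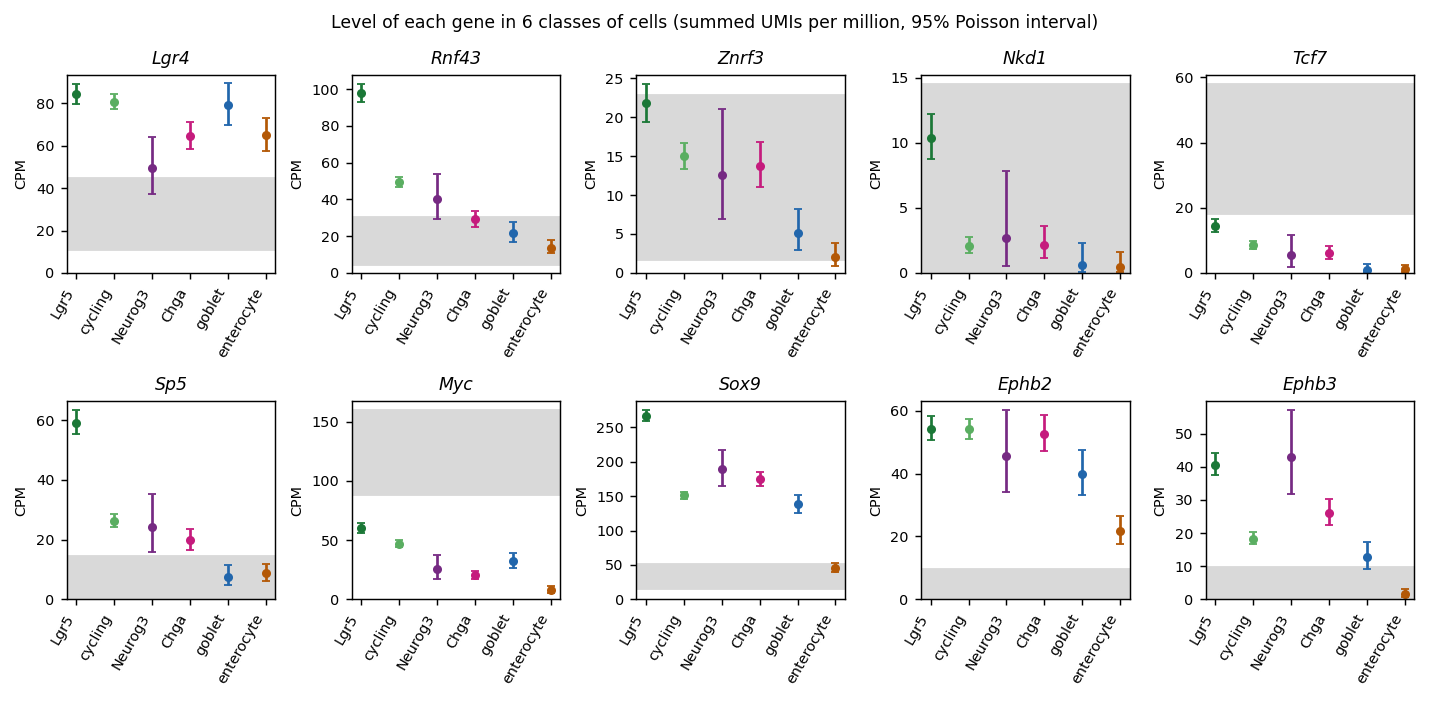
Level of each gene (CPM) in the 6 classes, with 95% Poisson intervals. The grey band is the interval of the gene in 123 B and T cells outside the 6 classes; Ephb2 overlaps from the Lgr5 to the Neurog3 class, and 9 genes have their highest value in the Lgr5 class, the exception being Ephb3 in the Neurog3 class, where intervals overlap.

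Free RNA in the droplets was judged from the 123 B and T cells that met none of the 6 rules, at a median of 2693 UMIs. They held 23.5 CPM of Lgr4 (10.7 to 44.6), 13.04 of Rnf43 (4.23 to 30.4), 28.7 of Sox9 (14.3 to 51.3) and no UMI of Ephb2 or Ephb3 (upper limit 9.62 CPM). The lymphocyte intervals took in Rnf43 in the Chga, goblet and enterocyte classes and Sp5 in the goblet and enterocyte classes. They also took in Ephb3 and Sox9 in the enterocyte class, so in CPM these levels could not be told from those of lymphocytes. These classes were deeper, with medians of 12142, 21042 and 28428 UMIs, so lymphocyte CPM need not be their background. Without thinning Rnf43 had a UMI in 4.07% of the lymphocytes and in 27.0%, 31.8% and 32.8% of these classes. Sox9 was found in 8.94% of the lymphocytes and 51.5% of enterocytes. These shares were not at equal depth. Thinned to 2000 UMIs, Rnf43 was found in 4.49% of the Chga class (2.59 to 7.20%) and 2.42% of the goblet class (0.502 to 6.91%). The enterocyte class had 0.752% (0.0190 to 4.12%), 74 B cells 2.70% (0.329 to 9.42%) and 31 T cells 3.23% (0.0816 to 16.7%). At that depth the Rnf43 intervals of all 3 classes overlapped those of the B and T cells. Within the enterocyte class, however, Sox9 in the 50 cells with 2 to 4 Alpi UMIs, at 63.5 CPM (51.96 to 76.8), lay above the lymphocyte interval. Lgr4 and Ephb2 in enterocytes lay above their lymphocyte intervals as well, while the interval of Ephb3 in the goblet class (9.07 to 17.3) overlapped the limit of 9.62 CPM. For Nkd1 and Znrf3 the lymphocyte sums, 1 and 3 UMIs, are too shallow to judge by, and their intervals take in the Lgr5 class too. The same holds for Tcf7 in the 82 B cells alone, with 1 UMI (3.86 CPM, 0.0978 to 21.5). Myc was higher in these lymphocytes than in the 6 classes, so they give it no background. Thinned to 2000 UMIs, Sox9 was found in 38.2% of 495 cells of the Lgr5 class (33.9 to 42.6%), 12.03% of 133 enterocytes (7.04 to 18.8%) and 6.76% of 74 B cells (2.23 to 15.1%), with 2, 1 and 14 shallower cells left out. Without thinning Lgr4 had a UMI in 84.7% of the Lgr5 class at a median of 24495 UMIs, and in 7.95% of B cells at 2674 UMIs.

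Single cells of the Lgr5 class seldom showed many of the 10 genes at once at equal depth. Thinned to 5000 UMIs, 491 of these cells had a median of 3 of the 10 genes, and 53.6% had 3 or more. In the cycling class 26.9% had 3 or more, in the Neurog3 class 29.8%, in the Chga class 17.2%, in the goblet class 7.83% and in the enterocyte class 0.758%. Between pairs of the 10 genes across the thinned Lgr5 class cells, the 45 correlations ran from -0.10 to 0.16 with a median of 0.04. The highest was between Rnf43 and Sox9. These cells share 1 library and 1 depth, and values this weak in sparse counts cannot decide whether the genes vary together.

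Within the Lgr5 class the genes were compared across levels of Lgr5. In this and the following comparisons of subsets of cells, lower and higher mean intervals apart, whatever the fold, except where the 2-fold rule is named. Cells with 10 to 19 Lgr5 UMIs (73 cells) against those with 3 to 4 (188 cells) had intervals apart and higher for 3 genes, beside 2.07% of all genes. These were Nkd1 (16.4 against 7.15 CPM), Sox9 (316 against 232) and Ephb3 (49.2 against 34.03). Cells with more Lgr5 UMIs were also deeper, with medians of 35603 and 19686 UMIs. A ranking by Lgr5 per UMI, added after the data were seen, gave the opposite depths, medians of 18325 UMIs in the 166 highest cells and 34829 in the 166 lowest. There 8 genes were higher, beside 9.17% of all genes: Nkd1 at 18.5 against 6.75 CPM, Rnf43 at 139 against 70.6, Sp5 at 83.6 against 42.3, Ephb3 at 58.2 against 30.9, Sox9 at 362 against 213, Znrf3 at 28.4 against 17.7, Myc at 72.3 against 52.5 and Lgr4 at 98.4 against 76.6. Tcf7 (15.9 against 13.3) and Ephb2 (55.6 against 54.3) overlapped. In both rankings Nkd1 had the largest fold of the 10, 2.29 (1.44 to 3.70) and 2.74 (1.84 to 4.11). The part of depth in these differences was not tested.

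Cycling cells within the Lgr5 class (180 cells) had lower levels than the other 317 for 6 genes with intervals apart, beside 5.35% of all genes. Nkd1 was at 5.76 against 14.9 CPM, Sp5 at 47.8 against 70.3, Ephb3 at 32.5 against 48.6, Sox9 at 226 against 307, Myc at 51.8 against 68.4 and Rnf43 at 84.9 against 110.3. Lgr5 itself was lower in the same cells, at 178 against 274 CPM. Lgr4, Znrf3, Tcf7 and Ephb2 overlapped. Cycling cells outside the Lgr5 class (457 cells), set against the 317 Lgr5 class cells that were not cycling, passed the 2-fold rule downwards for 6 genes beside 3.88% of all genes. Nkd1 was at 0.387 against 14.9 CPM (6 against 109 UMIs), Ephb3 at 11.8 against 48.6, Sp5 at 16.5 against 70.3, Rnf43 at 33.04 against 110.3, Sox9 at 117 against 307 and Tcf7 at 6.52 against 15.7. Lgr4 (79.4 against 84.7) and Ephb2 (52.9 against 51.9) overlapped, while Znrf3 and Myc were lower by less than 2-fold.

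**Figure D4:**
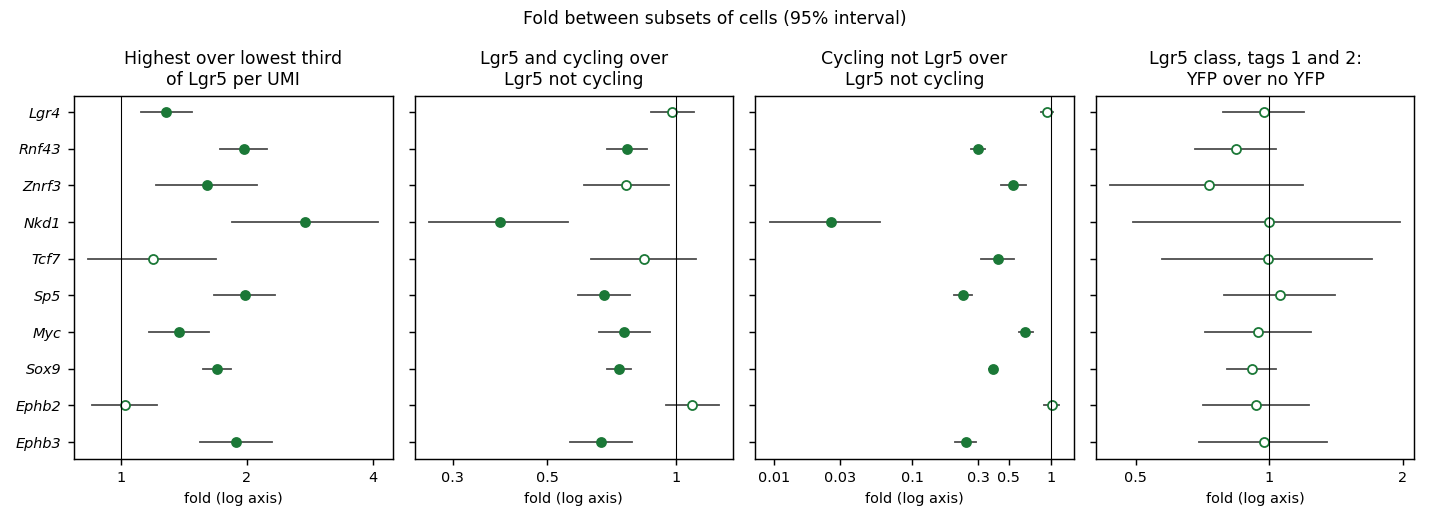
Fold of each gene between subsets of cells (log axes, 95% intervals; filled where the 2 levels' own intervals are apart). The first 2 panels and the last stay within the Lgr5 class, and the third sets cycling cells outside it against Lgr5 class cells that are not cycling; Nkd1 lies farthest from 1 in the first 3, and all 10 intervals overlap in the last.

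The tag pairs and the lineage reporter were compared inside the Lgr5 class. A cell was given to tags 1 and 2, or to tags 3 and 4, if that pair had 3 or more times the counts of the opposite one. The 157 cells of tags 1 and 2 had lower Sp5 (46.2 against 59.7 CPM) and Sox9 (247 against 279.8) than the 120 cells of tags 3 and 4, both by less than 2-fold, beside 1.11% of all genes. The other 8 genes overlapped, though the fold intervals of Znrf3 (0.722 times, 0.535 to 0.972) and Ephb3 (0.798 times, 0.647 to 0.984) lay below 1. The median log2 ratio of the 10 genes was -0.20, beside 0.07 over all genes. Lgr5 was at 207 and 199 CPM. In the cycling class the same pairs had lower Lgr4 (75.1 against 91.1) and Sp5 (23.98 against 32.6) beside 2.42% of all genes, with 237 and 122 cells. There the median log2 ratio was -0.22 for the 10 genes and 0.04 over all genes. The source of these shifts between tag pairs was not tested. Within tags 1 and 2, Lgr5 class cells with at least 3 YFP UMIs (60 cells) and those with none (83 cells) overlapped in all 10 genes, where 2.46% of all genes were lower and 2.85% higher. Rnf43 was at 80.1 against 95.1 CPM, 0.841 times (0.681 to 1.04), and Nkd1 at 8.83 against 8.86, 0.997 times (0.492 to 1.97), so a 2-fold drop lies outside the first interval and inside the second. Cells with Y-linked UMIs (26) and Xist cells (119) of the same tags also overlapped in all 10, where 1.83% of genes were lower and 3.30% higher in the former.

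Along the endocrine branch, 27 cells of the Neurog3 class without Chga class counts were set against 346 Chga class cells without Neurog3 class counts. Ephb3 was lower in the Chga cells, at 25.5 against 45.9 CPM, 0.556 times (0.383 to 0.826), beside 8.74% of all genes. Lgr5 was lower as well, at 34.4 against 66.9 CPM. The other genes had overlapping intervals. Rnf43 (29.4 against 47.2) and Myc (20.8 against 34.1) had the smaller value in the Chga cells. Their fold intervals lay below 1, at 0.623 times (0.434 to 0.917) and 0.610 times (0.398 to 0.969). Lgr4 had the larger value there, at 64.5 against 43.3, 1.49 times (1.04 to 2.20), as did Znrf3 (13.5 against 10.5) and Ephb2 (53.0 against 44.6), while Sox9 was at 173 against 178. The goblet class divided into 29 cycling and 100 other cells, and its 7 tested genes overlapped, where 11.8% of all genes were lower and 5.51% higher in the cells that did not cycle. Myc was at 25.2 CPM in these and 44.3 in the cycling goblet cells, 0.57 times (0.378 to 0.860). In the enterocyte class, cells with 10 or more Alpi UMIs (31) were lower than those with 2 to 4 (50) for 3 of 6 tested genes, beside 14.6% of all genes. These were Sox9 at 22.0 against 63.5 CPM, Ephb2 at 14.1 against 31.1 and, by less than 2-fold, Lgr4 at 46.6 against 79.6.

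The other Wnt genes were taken from lists by role, counted by the same rule and shares of all genes as above. Of 11 further target genes, all tested, 1 was lower in the cycling, 3 in the Neurog3, 6 in the Chga, 6 in the goblet and 9 in the enterocyte class, with medians of -0.65, -0.59, -1.08, -1.75 and -2.82. Cdca7 went from 282 CPM in the Lgr5 class to 90.7 in the Chga and 25.9 in the enterocyte class, and Smoc2 from 236 to 111 and 32.6. The cyclin Ccnd2 was at 434 in the Lgr5 class, 486 in the goblet and 199 in the enterocyte class, where alone it was lower. Axin2, the feedback scaffold of the destruction complex, named after its values were seen, ran from 202 CPM through 127, 99.5, 76.8 and 51.7 to 14.05 in the order of classes used above. One of the 11 was higher in the endocrine classes: Prox1, likewise named afterwards, a homeobox factor, at 45.7 CPM in the Neurog3 and 21.1 in the Chga class against 3.81.

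Of 11 destruction complex genes, Dishevelled genes and beta-catenin, none was lower or higher in the cycling, Neurog3 and goblet classes, 1 was higher in the Chga class (Btrc) and 1 lower in the enterocyte class (Amer1). Ctnnb1, beta-catenin, was at 223 CPM in the Lgr5 and 182 in the enterocyte class, Gsk3b at 149 and 91.0, and Csnk1a1 at 340.4 and 310.4. Of 17 receptors, 16 had at least 20 UMIs over the 6 classes, and of those tested 1 of 14, 1 of 13, 2 of 14, 3 of 14 and 7 of 13 were lower from the cycling to the enterocyte class. Each of these counts includes Lgr5, which the class rule itself made high in the reference, and in the cycling and Neurog3 classes it was the only one. In the Neurog3 class 2 of 13 receptors tested were higher and in the Chga class 4 of 14, beside 9.33% and 17.7% of all genes. Lrp6 was at 60.6 CPM in the Lgr5 and 58.2 in the enterocyte class, Ryk at 66.9 and 43.7. Fzd5, named after its value was seen, was higher in the enterocyte class, at 104 CPM (94.5 to 114) against 41.8 (38.5 to 45.3). Among 10 nuclear partners of beta-catenin and their co-repressors tested in each class, at most 2 were lower and 1 higher. Tcf7l2, the main TCF of the intestine, was at 72.1 CPM in the Lgr5 and 75.8 in the enterocyte class, Tle4 at 53.8 and 93.0, and Ctnnbip1 at 40.6 and 63.3.

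Among 11 ligands and R-spondins, 4 reached 20 UMIs over the 6 classes. Wnt3, a ligand best known from Paneth cells, was higher than in the Lgr5 class (5.68 CPM, 4.51 to 7.05) in the Neurog3 class at 48.4 (36.4 to 63.2), the Chga class at 34.7 (30.3 to 39.6) and the goblet class at 24.1 (19.01 to 30.2), and lower in the enterocyte class at 1.56 (0.628 to 3.22). Wnt9b was higher in the Neurog3 class, at 8.96 (4.30 to 16.5; 10 UMIs) against 0.900 (0.479 to 1.54), and Wnt4, with 35 UMIs in all, passed the rule in no class. Of 11 secreted and other inhibitors, 4 were measured. In the cycling class 1 of 4 tested was lower, in the Neurog3 class none of 3 passed the rule, in the Chga class 1 of 4 was lower and 1 higher, and in the goblet and enterocyte classes 2 of 3 were lower. The higher one was Wif1, a secreted Wnt binder named after its values were seen, at 10.3 CPM (7.98 to 13.1) against 0.692 (0.332 to 1.27). Sfrp5, a secreted Wnt binder, was at 28.7 CPM in the Lgr5, 37.6 in the Neurog3, 5.08 in the goblet and 2.23 in the enterocyte class, the last 2 lower by the rule. Tnfrsf19, a Wnt target of stem cells, went from 26.1 to 8.76, 6.30, 1.90 and 0.223 CPM in the cycling, Chga, goblet and enterocyte classes. It is in the list of further targets too, so it is counted in both. In the cycling class it was the only lower gene of either list, and in the Chga class the only lower inhibitor. Kremen1, at 3.95 CPM, passed the rule in none.

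Of 5 ephrin genes, 3 of 4 tested were higher and 1 lower in the enterocyte class, where Ephb2 and Ephb3 were lower. In the Chga and in the goblet class 1 of 4 was higher and 1 lower, and in the cycling (of 5 tested) and Neurog3 (of 4) classes 1 was higher and none lower. Of all genes, 1.51%, 9.33%, 17.7%, 7.83% and 9.67% were higher from the cycling to the enterocyte class. The shares of lower genes were 0.835%, 1.74%, 3.91%, 5.58% and 17.0%. In enterocytes the ephrin-B gene Efnb1 was at 78.9 CPM (70.9 to 87.6) against 35.7 (32.7 to 38.9) in the Lgr5 class, and the ephrin-A gene Efna1 at 73.1 (65.4 to 81.5) against 35.4 (32.4 to 38.7). Efnb2, named after its values were seen, was at 60.2 (53.2 to 67.8) against 2.84 (2.04 to 3.85), and already at 19.7 (15.1 to 25.2) in the goblet class. Efna4, the lower one, went from 63.7 CPM in the Lgr5 class to 19.2 in the enterocyte and 18.1 in the Chga class.

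**Figure D5:**
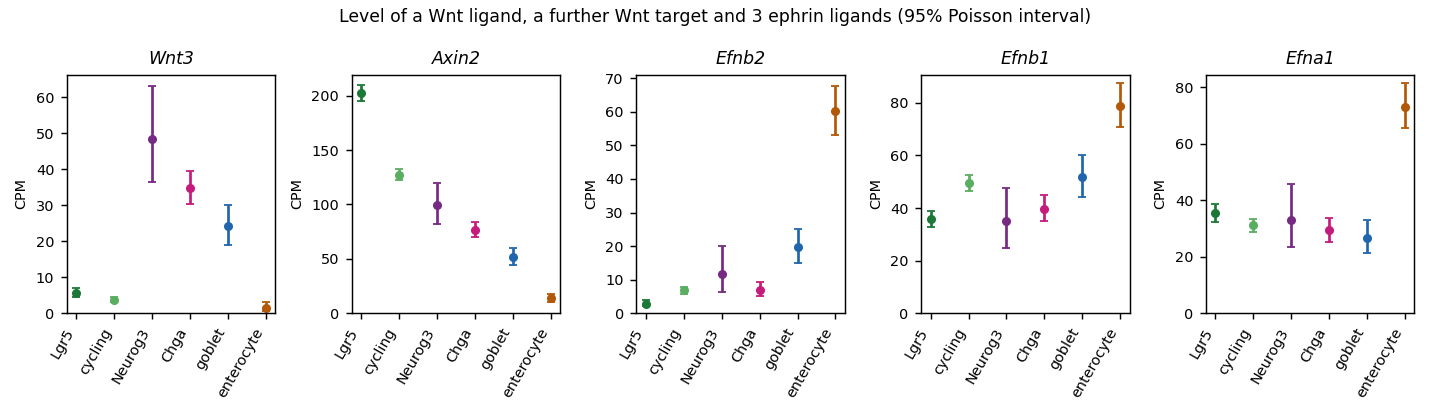
Level (CPM, 95% Poisson intervals) of the ligand Wnt3, the feedback gene Axin2 and 3 ephrin ligands in the 6 classes. Wnt3 is highest in the Neurog3, Chga and goblet classes, Axin2 declines from 202 to 14.05 CPM, and all 3 ephrins are highest in the enterocyte class.

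Genes with the profile most like each of the 10 were sought among 7676 genes with at least 500 UMIs, by Pearson's r of log2(CPM + 1) over 10 classes, the 6 plus Paneth, tuft, B and T cells. The classes share 1 library and some cells, differ in depth, and give a description only. Rnf43 was most like Cdca7 (0.97), Cttnbp2 and Nr2e3. Sp5 was most like Ppp2r3a (0.92), Sept10 and Axin2. Sox9 and Ephb3 shared Mmp15 (0.97 and 0.96), and Ephb3 had Smo and Sox9 next. Sox9 was closest to Stra6l (0.98), followed after Mmp15 by Gpld1. Lgr4 was most like Magi1 (0.96), Nop2 and Ccnd1, and Ephb2 like Mphosph6 (0.99) and Tada2a. For Znrf3 the nearest were Gkap1 (0.96), Slco3a1 and Paics, for Myc Filip1l (0.93), Tipin and Mms22l, and for Tcf7 Itga1 (0.90), Tnfsf10 and Arl4c. Nkd1 had the least like partners, with Cdc42ep1 at 0.85 ahead of Cd24a and Gkn3.

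As a check of the class labels, the 6 genes of the stem cell marker list summed to 10386 CPM in the Lgr5 class and 344 in the enterocyte class. The list includes Lgr5, which the class rule itself made high, so this check is in part fixed by the rule. It also holds Axin2, Ascl2 and Smoc2, which are counted among the further target genes above. The Paneth list summed to 21736 CPM in the Lgr5 class, with a median of 573 in its cells, and 14 cells met both the Lgr5 and the Paneth rule. Without these 14 cells the numbers of lower genes were 4, 5, 5, 6 and 9. Markers of T cells were at 0.138 CPM and of B cells at 1.73 CPM in the Lgr5 class.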

How the data were processed

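Single-cell RNA-seq and hashtag antibody counts of mouse crypt epithelium were used. The authors deposited raw UMI counts per gene and cell for the cells they kept, and raw hashtag counts. The cell filter is not stated. Cell Ranger and Seurat are named without versions, per the submitters' processing notes, which also name a human genome build although the gene identifiers are mouse Ensembl identifiers, so no coordinates come from the files. The deposited normalized table was not used. The members, classes and gene lists were chosen with earlier results of these data known.

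Counts were summed per class and divided by the class total (CPM). Ratios used a pseudocount of 1 CPM. A gene needed 20 UMIs over both classes, and past the rule means 2-fold or more with exact 95% Poisson intervals apart. Folds carry exact conditional intervals and shares Clopper-Pearson intervals. Intervals cover counting error only. Shares were thinned to 2000 or 5000 UMIs per cell. No cell was removed as a doublet. Scrublet marked 2 of 2335 cells by its own threshold, so the 6% with the highest scores (140 cells) were left out as an alternative. The genes named are all 10 members, the 3 genes of each other Wnt list with most UMIs, the 3 genes most like each member (1 of which is not reported here), and those said to be named afterwards. Software was Python 3.11.15, numpy 2.4.6, scipy 1.17.1, pandas 2.3.3, scanpy 1.11.5 and matplotlib 3.10.9.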

Additional observations from a re-analysis of the deposited data

How the results depend on the processing

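The numbers of lower genes were recomputed under 15 alternatives, of which leaving the 14 Paneth cells out of the Lgr5 class was chosen after seeing the data. No gene was higher by the rule in any of the 5 comparisons under any of them. The enterocyte count stayed between 8 and 9 and the goblet count between 5 and 8, within 1.5 times the reported values. The cycling count of 3 became 6 with exclusive classes, 1 with looser thresholds, 0 with a pseudocount of 10 CPM and 1 in tags 1 and 2 alone. The Neurog3 count of 5 became 2 with a pseudocount of 10 CPM, 3 with cells thinned to 5000 UMIs, 3 without the 6% highest Scrublet scores and 1 in tags 1 and 2 alone. The Chga count of 5 became 3 with a pseudocount of 10 CPM and 3 in the Y-linked cells alone. The larger pseudocount by construction shrinks ratios of low genes such as Nkd1 and Tcf7; for the other changes the cause was not tested. Ranking the Lgr5 class by Lgr5 per UMI turned 3 higher genes into 8. Of the genes that passed the rule, 1 changed direction: Tcf7 in the Neurog3 class, at 0.20 after thinning to 5000 UMIs. Ephb2 in the cycling class ranged from -0.22 to 0.11 and Lgr4 from -0.49 to 0.09, so neither has a direction there. The same holds for Ephb2 in the Chga class (-0.22 to 0.26), Lgr4 in the goblet class (-0.24 to 0.10) and Ephb3 in the Neurog3 class (-0.33 to 0.40). Comparisons with a class under 20 cells were not run: the Neurog3 class with exclusive classes (13 cells), the Neurog3, Chga and goblet classes in tags 3 and 4, and the Neurog3, goblet and enterocyte classes in the Y-linked cells. No paired analysis was possible because there is 1 gene expression library. Depth limits the ratios that rest on under 20 UMIs: Nkd1, Tcf7 and Znrf3 in the Neurog3, goblet and enterocyte classes, Nkd1 in the Chga class and Ephb3 in the enterocyte class.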
